A study of Mus musculus with 7 samples.

Results

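Glutathione transferases join the tripeptide glutathione to reactive, fat-soluble molecules so that these can be exported and cleared, and the liver is a main site of this reaction. The genes described here are those of the alpha, pi, theta and kappa classes and 1 membrane-bound enzyme: Gsta1, Gsta2, Gsta3, Gsta4, Gstp1, Gstt1, Gstt2, Gstt3, Gstk1 and Mgst1. They were taken by gene symbol, 10 in all, by a rule that uses no measured value but was set with earlier results of these data known. Of the 10 symbols, 9 had a row among the 12151 genes of the table and all 9 of these passed the filter on low values, whereas Gsta1 was not analysed here. The alpha, pi and theta enzymes are soluble proteins of the cytosol, the kappa enzyme sits in mitochondria and peroxisomes, and Mgst1 is embedded in the endoplasmic reticulum and the outer mitochondrial membrane. Several soluble transferase genes are known targets of NRF2, the factor that acts through antioxidant response elements, and of the drug-sensing nuclear receptors CAR and PXR.

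RNA was sequenced from hepatocytes isolated from mouse liver, with 3 libraries from wild-type (WT) animals that carry no treatment in the labels and 4 libraries labelled ALAS1/2-KO. In the ALAS1/2-KO group a conditional allele allowed an inducible Cre to remove exons 4 and 5 of Alas1, the label names tamoxifen as the treatment, and Alas2 was lowered with a GalNAc-coupled small interfering RNA, GalNAc being a sugar that hepatocytes take up. ALAS1 and ALAS2 carry out the entry step of heme synthesis. The sources used here do not name the driver of the Cre or the strain and age of the animals. The effects of the genotype, of tamoxifen and of the siRNA cannot be told apart, since every ALAS1/2-KO library carries all of them. The study's title concerns a role of ALAS1 in silencing by small RNAs that does not depend on heme.

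The listed genes held 22916097 to 34048680 reads per library in WT and 27933939 to 30195635 in ALAS1/2-KO. Alas2, the siRNA target, was measured at 11.3 ± 5.18 CPM in WT (read counts scaled to library size, SD, n = 3) and 0.44 ± 0.26 in ALAS1/2-KO (n = 4), and it was called lower (limma adjusted p = 0.0027). Alas1 ran the other way, at 279.5, 264.7 and 83.5 CPM in WT replicates 1, 2 and 3 and at 287 to 361 in ALAS1/2-KO, without passing (log2 fold change 0.80, limma adjusted p = 0.277). All its ALAS1/2-KO libraries were above all WT libraries, and a value for the whole gene does not check a deletion of 2 exons. Hepatocyte markers were abundant in every library, with 9 of 10 in the table and a summed level of 119712 to 126759 CPM in WT and 78871 to 86288 in ALAS1/2-KO, most of it albumin. Alb itself fell, with means of 97897 and 53409 CPM (-0.87 on the log2 scale, limma adjusted p = 0.00606), whereas none of the other 8 passed. Of these 8, 6 had a log2 fold change above 0 (such as Apoa1 0.40 and Ttr 0.37). Cyp2e1 (-0.62, groups that did not overlap) and Fgb (-0.18) were below 0. The median of the 9 was 0.29. Transcripts of other liver cells were present too. Their summed levels were 448 to 563 CPM in WT and 107 to 486 in ALAS1/2-KO for 12 endothelial markers, 289 to 536 and 64.8 to 330.2 for 11 stellate markers, and 980 to 1338 and 251 to 1597 for 11 Kupffer cell and macrophage markers. For the 4 of 10 bile duct markers in the table the sums were 51.8 to 60.2 and 35.03 to 49.1 CPM, for 6 of 12 leukocyte markers 33.2 to 41.6 and 7.59 to 34.2, and for 4 of 7 red cell markers 11.3 to 41.3 and 2.75 to 7.39. Krt19, Krt7 and Epcam were not analysed here. Limma called 1 gene lower on each of the last 3 lists (Spp1, Cd79a and Hbb-bt) and 0 on the endothelial, stellate and Kupffer lists. Cd79a, at 0.21 to 0.86 CPM in ALAS1/2-KO, met the filter on low values only through its WT libraries, which limits what its call shows. The sign was nevertheless the same throughout, as every tested marker on these 6 lists had a log2 fold change below 0. Single libraries did not all follow it. The Kupffer sums of ALAS1/2-KO replicates 3 and 4, 1597 and 1473 CPM, lay above every WT library. Mean CPM of the Kupffer markers Cd5l and Adgre1 was slightly higher in ALAS1/2-KO (274 and 33.7) than in WT (267 and 31.9). Median log2 fold changes were -0.98 for endothelial, -1.41 for stellate and -0.50 for Kupffer markers. They were -0.21 for bile duct, -1.38 for leukocyte and -2.28 for red cell markers. The lack of calls therefore does not show equal levels. ALAS1/2-KO replicate 1 was the lowest library on the endothelial, stellate, Kupffer and leukocyte lists, and the fold changes of the 9 genes are given below also without it. In such bulk libraries fewer cells of a type and less RNA per cell cannot be told apart.

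The family falls into sets of related genes, and how alike their sequences are decides which values belong to a single gene. Gsta1, Gsta2 and Gsta4 lie close together on chromosome 9, Gstt1, Gstt2 and Gstt3 on chromosome 10, and Gsta3 stands alone on chromosome 1. Gsta2 (ENSMUSG00000057933.10, chr9:78331018-78355788, minus strand, mm10) and Gsta1 (chr9:78230656-78242684, plus strand) were 97.6% identical over their coding sequences in the GENCODE M21 annotation. They differed at 13 aligned bases and by a gap of 3, and the longest stretch without a difference was 196 bases. Of all 50-base words in the longest coding transcript of Gsta2, 64.2% also occurred in transcripts of other genes, 44.8% in Gsta1, 44.5% in Gm10639 and 38.4% in Gm3776, and these 3 were not analysed here. The 120 coding bases in which Gsta1 and Gsta2 differ most are shown because they mark where reads can be assigned to one or the other, with differing bases in capitals and bases 373 to 492 counted from 1 at the start codon in both.
Gsta1: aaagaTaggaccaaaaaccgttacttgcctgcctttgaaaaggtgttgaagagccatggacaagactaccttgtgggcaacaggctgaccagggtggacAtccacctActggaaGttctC
Gsta2: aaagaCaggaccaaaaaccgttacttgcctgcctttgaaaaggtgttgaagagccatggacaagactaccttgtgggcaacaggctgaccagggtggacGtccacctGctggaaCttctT
Only 5 of these 120 bases differ. The read counter is unknown from the sources used here, so reads common to these copies may have been dropped or split, and a value for Gsta2 is uncertain as the value of that gene alone.

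Gstp1 (ENSMUSG00000060803.6, chr19:4035407-4037985, minus strand) had a similar problem. Of its 50-base words 62.3% occurred in the neighbouring Gstp2, whose coding sequence was 98.1% identical, and 45.6% in Gstp-ps, a processed pseudogene on chromosome 1 inside Traf5. Gstt3 (ENSMUSG00000001665.11, chr10:75774115-75781414, minus strand) shared 26.0% of its words with Gm20441, a gene model that overlaps it on the same strand. The others shared little or nothing. The figure was 0 for Gsta3 (ENSMUSG00000025934.15, chr1:21240589-21265661, plus strand), Gsta4 (ENSMUSG00000032348.6, chr9:78182774-78209349, plus strand), Gstt1 (ENSMUSG00000001663.10, chr10:75783813-75798584, minus strand), Gstk1 (ENSMUSG00000029864.7, chr6:42245935-42250447, plus strand) and Mgst1 (ENSMUSG00000008540.11, chr6:138140316-138156755, plus strand). For Gstt2 (ENSMUSG00000033318.7, chr10:75831114-75837424, minus strand) it was 0.73%. Gsta3 is overlapped by an antisense gene model, Gm28836, and whether the counting used strand is unknown.

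The regions around the transcription starts were searched on both strands for the antioxidant response element core, TGACNNNGC, and for TGANTCAGC, the element bound by NRF2-type factors with small MAF proteins. Letters that fit both motifs overlap where N is C in the second. RefSeq windows from 250 bases before to 50 bases after a start (GRCm38.p6, the same assembly as mm10) covered 8 of the 10 genes in 10 windows. Gsta4 and Gstt2 had no window, and sequence outside the windows was not searched. A match was found for Gsta3, Gstp1 and Mgst1, each shown with 30 bases in the direction of the gene and the matched letters in capitals.
Gsta3 (chr1:21240454-21240483, plus strand): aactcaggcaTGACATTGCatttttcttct
Gstp1 (chr19:4037967-4037996, minus strand): tccaacgtgtTGAGTCAGCatccggggcgg
Mgst1 (chr6:138140461-138140490, plus strand): gcggggcttgGCACGGTCAggaggcggggt
The matches began 121, 74 and 56 bases before the RefSeq start of their window, and that of Mgst1 lay on the opposite strand. The GENCODE positions given above place the starts of Gstp1 and Mgst1 further upstream. By those positions the Mgst1 match and nearly all of the Gstp1 match lie inside the gene. Mgst1 had a further window, at a RefSeq start downstream of the first, which held no match. TGACNNNGC occurred in 12.4% and TGANTCAGC in 1.19% of all 32851 windows of this length. A match describes these letters only, and no binding was measured.

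The 9 genes spanned a wide range of levels, with the membrane-bound enzyme far above the rest. Per kilobase of exon, Mgst1 stood at 1123 ± 82.3 CPM per kb in WT (SD, n = 3) and Gsta2 at 2.10 ± 0.44. Between them came Gstp1 at 447 ± 87.6 CPM per kb, Gsta3 at 264.7 ± 44.0, Gstt1 at 118 ± 3.30 and Gstk1 at 72.1 ± 5.64. The lower part of the WT order held Gsta4 at 17.9 ± 0.73 CPM per kb, Gstt2 at 13.0 ± 2.37 and Gstt3 at 10.6 ± 2.10. Of these neighbours only Gstt2 and Gstt3 overlapped between WT libraries (10.99 to 15.6 against 8.64 to 12.8 CPM per kb). In ALAS1/2-KO the order was the same except that Gstt2 and Gsta4 changed places, and these overlapped (13.0 to 23.0 and 11.7 to 19.3 CPM per kb). Gstp1 and Gsta3 also overlapped there, at 304 to 526 and 297 to 352 CPM per kb. Mgst1 alone took 65.8% ± 2.34 of the CPM of the 9 genes in WT (SD, n = 3) and 59.7% ± 4.87 in ALAS1/2-KO (n = 4).

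Between the groups, Gsta2 fell and the other 8 genes did not pass the test. With limma across 12105 genes and an adjusted p under 0.05 as the threshold, 0 of the 9 were called higher and 1 lower. Over all genes tested 5.1% were called, 2.91% higher and 2.19% lower, and 1 call among 9 is too few to set these genes apart from that background. The median log2 fold change of the 9 was -0.15, with a range from -2.67 to 0.36, beside a median of -0.02 over all genes tested. At an unadjusted limma p under 0.05 there were 4 of the 9, namely Gsta2, Gsta3, Gstt3 and Mgst1, against 23.7% of all genes. Groups that did not overlap were found for 3 of the 9, Gsta2, Gstt3 and Mgst1, against 22.7% of all genes. Of these, Gsta2 met the filter on low values only through its WT libraries. Without ALAS1/2-KO replicate 1, Gsta2 (-2.62) and Gstt3 (-1.06) were called lower. The other 7 did not pass (limma adjusted p from 0.124 to 0.864), with log2 fold changes of 0.29 for Gsta3, -0.255 for Gsta4, -0.087 for Gstp1, -0.052 for Gstt1, 0.31 for Gstt2, -0.16 for Gstk1 and -0.37 for Mgst1. A gene that did not pass is not thereby shown to be equal in both groups, and the intervals below give the differences that remain possible. The labels do not say whether each library is a different animal, and every p-value here covers library-to-library spread only, part of which may be technical.

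**Figure D1:**
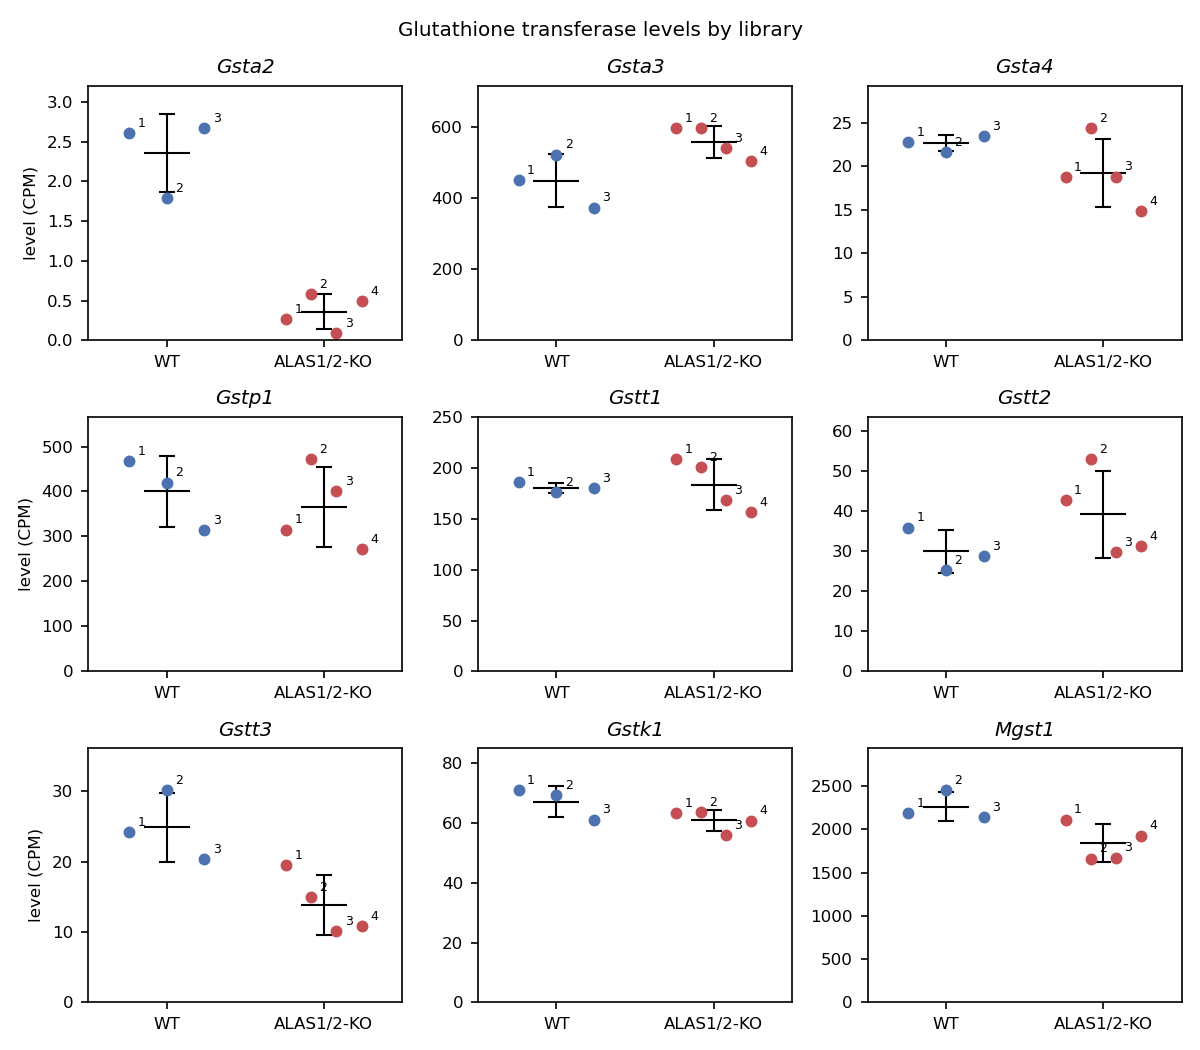
Level in CPM (linear axes from 0) of each of the 9 genes in the 3 WT libraries (blue) and the 4 ALAS1/2-KO libraries (red), with replicate numbers; horizontal bars are means and error bars 1 SD. Gsta2 separates the groups at low level (1.79 to 2.66 CPM in WT, 0.09 to 0.58 in ALAS1/2-KO), whereas Gstp1 and Gstt1 overlap widely.

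Among the alpha class, Gsta2 was the gene that fell, and it was also the least abundant. Alpha transferases conjugate a broad range of electrophiles, and the Gsta1 and Gsta2 pair is known for its response to antioxidant compounds. Gsta2 was measured at 2.61, 1.79 and 2.66 CPM in WT replicates 1, 2 and 3, from 50, 45 and 91 reads. In ALAS1/2-KO replicates 1 to 4 it was at 0.27, 0.58, 0.09 and 0.49 CPM, from 9, 19, 3 and 15 reads. Every ALAS1/2-KO library therefore lay below every WT library. Gsta2 met the filter of 1 CPM in 3 libraries only through its WT libraries. It was thus admitted by the group where it is high, which limits what its fall and lack of overlap show. It fell 6.35-fold (log2 fold change -2.67, SE 0.52, 95% confidence interval -3.86 to -1.47, limma adjusted p = 0.0302), and an exact two-sided permutation test gave p = 0.0286, the smallest that 3 against 4 libraries allow. The direction held in every alternative in which the gene was tested, but the limma call was lost without WT replicate 1, 2 or 3 (adjusted p = 0.105, 0.119 and 0.0851) and without ALAS1/2-KO replicate 4 (0.0539). It was kept without ALAS1/2-KO replicate 1 (0.0255), the library lowest in endothelial, stellate, Kupffer and leukocyte markers. Marker sums of other liver cells, given above, also differed between libraries, and their part in the Gsta2 result was not tested.

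Gsta3, the alpha enzyme known in mouse liver to clear the activated form of aflatoxin, was abundant in both groups. It was measured at 450.0, 521 and 372 CPM in WT replicates 1, 2 and 3 and at 595, 595, 538 and 503 in ALAS1/2-KO replicates 1 to 4. Only WT replicate 2 reached into the range of the ALAS1/2-KO libraries. The difference did not pass (log2 fold change 0.33, SE 0.14, 95% confidence interval 0.02 to 0.64, limma adjusted p = 0.194), except after rescaling every library to its listed reads (0.66, adjusted p = 0.0127), a scaling in which the median of all genes moved to 0.32. Gsta4, which handles 4-hydroxynonenal, a product of lipid peroxidation, was at 22.8, 21.7 and 23.5 CPM in WT and at 18.8, 24.4, 18.8 and 14.8 in ALAS1/2-KO. Its groups overlapped, through ALAS1/2-KO replicate 2, and it did not pass (log2 fold change -0.26, 95% confidence interval -0.61 to 0.10, limma adjusted p = 0.353). The sum of the 3 alpha genes was 473 ± 73.1 CPM in WT libraries (SD, n = 3) and 577 ± 48.3 in ALAS1/2-KO libraries (n = 4), nearly all of it Gsta3.

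Gstp1, the pi-class enzyme that is also known to bind the stress kinase JNK, varied as much within the groups as between them. It was measured at 468, 419.8 and 314 CPM in WT replicates 1, 2 and 3 and at 315, 471, 401 and 272 in ALAS1/2-KO replicates 1 to 4. Both groups covered nearly the same span, and the log2 fold change of -0.15 did not pass (SE 0.21, 95% confidence interval -0.64 to 0.34, limma adjusted p = 0.714). Its pseudogene Gstp-ps was listed at 153 ± 8.64 CPM in WT (SD, n = 3) and 148 ± 35.8 in ALAS1/2-KO (n = 4), and reads from the sequence it shares with Gstp1 cannot be assigned to either. Counting both together gave 554 ± 85.5 and 513 ± 124 CPM. Gstp2, the near-identical neighbour, was at 1.33 and 1.92 CPM and Gstp3 at 13.6 and 16.2 CPM, and neither passed (limma adjusted p = 0.496 and 0.370).

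None of the 3 theta genes passed the test. Theta enzymes act on small halogenated molecules such as dichloromethane, for which Gstt1 is best known. Gstt1 was at 186, 176 and 180 CPM in WT replicates 1, 2 and 3 and at 208, 201, 168 and 157 in ALAS1/2-KO replicates 1 to 4. The WT libraries lay close together inside the range of the ALAS1/2-KO libraries. The difference did not pass (log2 fold change 0.01, SE 0.12, limma adjusted p = 0.964), with a 95% confidence interval of -0.27 to 0.29. Gstt2 was at 36.0, 25.3 and 28.7 CPM in WT and at 42.7, 53.0, 29.9 and 31.3 in ALAS1/2-KO. ALAS1/2-KO replicates 1 and 2 were high and the other two lay in the WT range, so the groups overlapped and the gene did not pass (log2 fold change 0.36, 95% confidence interval -0.14 to 0.86, limma adjusted p = 0.356).

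Gstt3, the third theta gene, had the largest difference after Gsta2, at a higher level. It was measured at 24.2, 30.1 and 20.3 CPM in WT replicates 1, 2 and 3 and at 19.5, 14.9, 10.1 and 10.9 in ALAS1/2-KO replicates 1 to 4. Every ALAS1/2-KO library was below every WT library, though ALAS1/2-KO replicate 1 came close to WT replicate 3. The log2 fold change was -0.87 (SE 0.24, 95% confidence interval -1.43 to -0.32), a 1.83-fold lower level, and did not pass the threshold across all genes (limma adjusted p = 0.0839, exact permutation p = 0.0571, two-sided). Without ALAS1/2-KO replicate 1 it was -1.06 and passed (limma adjusted p = 0.0162), as it did with array weights (-1.22, adjusted p = 0.00488) and without ALAS1/2-KO replicates 1 and 2 (-1.22, adjusted p = 0.00244). It passed in only these 3 of 19 alternatives, and its adjusted p reached 0.2875 without WT replicate 2. ALAS1/2-KO replicates 1 and 2 had the highest Gstt3 of their group, so leaving them out deepens the fall by construction. ALAS1/2-KO replicate 1, the library lowest in endothelial, stellate and Kupffer cell markers, had the highest Gstt3 of its group. The sum of the 3 theta genes was 236 ± 9.35 CPM in WT (SD, n = 3) and 237 ± 38.3 in ALAS1/2-KO (n = 4).

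Gstk1, the kappa enzyme, whose fold is shared with bacterial disulfide isomerases, differed little. It was at 70.8, 69.2 and 61.05 CPM in WT replicates 1, 2 and 3 and at 63.2, 63.6, 55.9 and 60.75 in ALAS1/2-KO replicates 1 to 4. WT replicate 3 lay among the ALAS1/2-KO libraries. The difference did not pass (log2 fold change -0.14, SE 0.10, 95% confidence interval -0.36 to 0.08, limma adjusted p = 0.425).

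Mgst1, which reduces lipid hydroperoxides besides conjugating glutathione, was measured at 2187, 2449 and 2143 CPM in WT replicates 1, 2 and 3 and at 2111, 1662, 1673 and 1926 in ALAS1/2-KO replicates 1 to 4. On the deposited scale all ALAS1/2-KO libraries were below all WT libraries, with ALAS1/2-KO replicate 1 only just so. The difference of 1.23-fold did not pass (log2 fold change -0.30, SE 0.12, 95% confidence interval -0.58 to -0.02, limma adjusted p = 0.191, exact permutation p = 0.0571, two-sided). It passed with array weights (-0.39, adjusted p = 0.0367), whereas rescaling to listed reads gave 0.036. Gsta4, Gstp1 and Gstk1 also changed sign with that rescaling, to 0.076, 0.19 and 0.20.

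**Figure D2:**
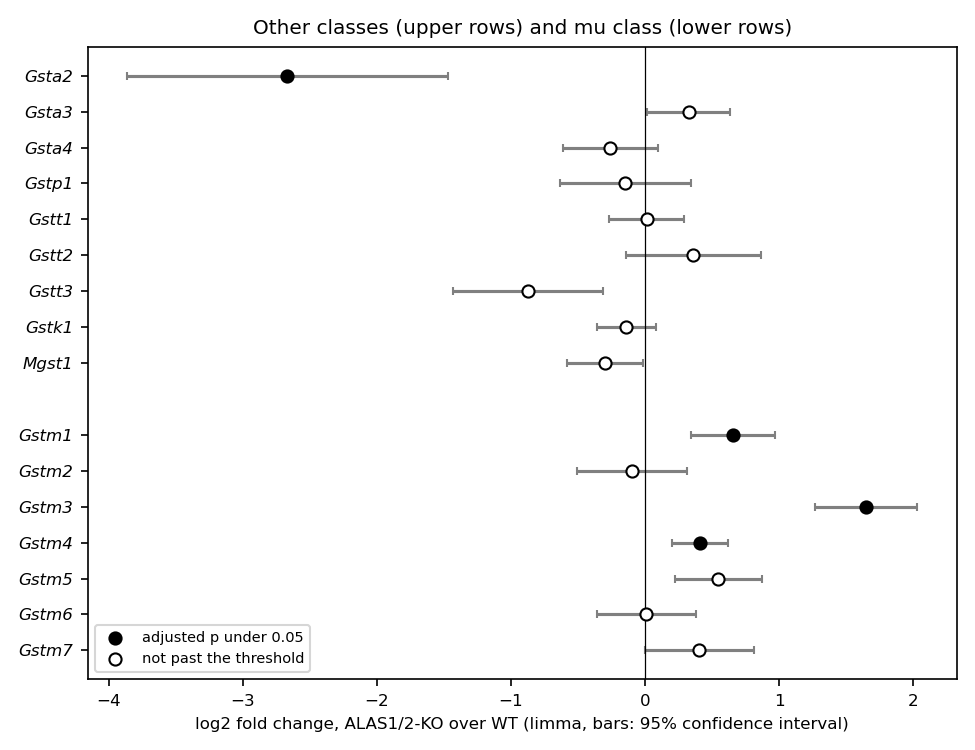
Log2 fold change of ALAS1/2-KO over WT from limma, with 95% confidence intervals, for the 9 genes of the other classes (upper rows) and the 7 mu-class genes (lower rows); filled points passed an adjusted p of 0.05. Gsta2 lies lowest at -2.67 and Gstm3 highest at 1.65, and most of the other intervals reach or nearly reach 0.

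The mu class, the other large family of soluble transferases and also known for its response to CAR, PXR and NRF2, is given beside them. Of its 7 genes 3 rose and 0 fell, beside 2.91% and 2.19% of all genes tested. The median log2 fold change was 0.41, with a range from -0.098 for Gstm2 to 1.65 for Gstm3. Gstm3 was at 17.95 ± 2.16 CPM in WT libraries and 57.1 ± 12.3 in ALAS1/2-KO libraries (SD, n = 3 and 4), a 3.14-fold rise (limma adjusted p = 0.00273). Gstm1 rose 1.57-fold, with 561 ± 65.1 and 885 ± 112 CPM (limma adjusted p = 0.0353), and Gstm4 1.33-fold (0.0404). Gstm3 passed in all 7 fits that leave out 1 library. Gstm1 passed in 2 of them (without ALAS1/2-KO replicate 1 or 4) and Gstm4 in 0. A scaling that left out the 20 most abundant genes and the mitochondrial ones also ended the calls of Gstm1 and Gstm4 (adjusted p = 0.0578 and 0.0787). The difference between the mu class and the other classes was not tested. Of 7 further transferase genes in the table, 0 were called by limma and 1 had an unadjusted p under 0.05. Gstz1, the zeta enzyme of tyrosine breakdown, was at 370.2 and 387 CPM, and Gsto1, an omega enzyme, at 45.6 and 61.1 CPM (limma adjusted p = 0.839 and 0.0524).

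Of 20 tested genes that supply and recycle glutathione, limma called 0 higher and 3 lower, beside 2.91% and 2.19% of all genes. Their median log2 fold change was -0.12. Ggct, which breaks down gamma-glutamyl peptides, fell 2.80-fold, with means of 28.4 and 10.3 CPM (limma adjusted p = 0.0108). Gpx1, the glutathione peroxidase that removes hydrogen peroxide, fell 1.66-fold (means 1005 and 604 CPM, adjusted p = 0.0252), and Cbs, which feeds homocysteine into cysteine synthesis, fell 1.88-fold (means 424 and 229 CPM, adjusted p = 0.0358). Gclc and Gclm, the subunits of the rate-limiting enzyme of glutathione synthesis, were at 145 and 94.97 CPM and at 99.97 and 96.01 CPM and did not pass (limma adjusted p = 0.109 and 0.781). All 3 calls were lost without WT replicate 2 (adjusted p = 0.0535, 0.128 and 0.153). Those of Gpx1 and Cbs were also lost without WT replicate 1 (0.0775 and 0.121), ALAS1/2-KO replicate 3 (0.0548 and 0.0718) or ALAS1/2-KO replicate 4 (0.0644 and 0.0708), and that of Cbs without WT replicate 3 (0.0703). Rescaling to listed reads ended both as well, with log2 fold changes of -0.39 for Gpx1 and -0.58 for Cbs against -0.73 and -0.91 as reported (adjusted p = 0.0621 and 0.0653).

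Of 15 genes that export conjugates or trim them to mercapturates, 4 rose and 0 fell, beside 2.91% and 2.19% of all genes. Abcc2, the pump that sends glutathione conjugates into bile, rose 1.64-fold, with 317 ± 6.64 CPM in WT libraries and 522 ± 43.8 in ALAS1/2-KO libraries (SD, n = 3 and 4; limma adjusted p = 0.00979). Kyat1, a lyase of cysteine conjugates, rose 1.61-fold (limma adjusted p = 0.0303), and Nat8f1, an acetyltransferase-like gene, 1.82-fold (0.0327). The other gene called was Anpep, an aminopeptidase, 1.40-fold higher (0.0355). All 4 calls were lost without WT replicate 2, where Abcc2, Kyat1 and Nat8f1 had adjusted p = 0.0713, 0.120 and 0.151. Kyat1 and Nat8f1 were also lost when any of WT replicates 1 and 3 and replicate 3 of ALAS1/2-KO was left out, and Nat8f1 without ALAS1/2-KO replicate 4 (adjusted p from 0.0593 to 0.0967). The median of the 15 was 0.09.

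The regulators known for these genes, and their other targets, were examined beside them. Nfe2l2, which encodes NRF2, rose 1.42-fold, with 60.5 ± 4.79 CPM in WT libraries and 86.1 ± 7.33 in ALAS1/2-KO libraries (SD, n = 3 and 4; limma adjusted p = 0.0344), and Ppara, the fatty acid receptor, 1.60-fold (0.0269). They were the only 2 of 19 regulators called, with 0 lower, beside 2.91% higher and 2.19% lower over all genes. Both calls were lost when any of WT replicates 1 and 2 and replicate 4 of ALAS1/2-KO was left out (adjusted p from 0.0591 to 0.120). The call of Nfe2l2 was also lost without WT replicate 3 (0.0782) or ALAS1/2-KO replicate 3 (0.0732), and when scaled without the 20 most abundant and mitochondrial genes (0.0607). Of 19 tested genes on a list of NRF2 targets outside the transferases 5 rose and 0 fell, beside 2.91% and 2.19% of all genes. Among the 5 were Ephx1, an epoxide hydrolase, 2.58-fold, G6pdx, which makes NADPH, 2.91-fold, and Ces2g 1.89-fold (limma adjusted p = 0.00551, 0.00699 and 0.00503). The others called were Cbr1 and Pgd, 1.57-fold and 1.46-fold higher (0.0188 and 0.0459). Of the 19 targets, 12 had a log2 fold change above 0 and 7 below, with a median of 0.25 and a range from -0.53 to 1.54. The list left out genes of glutathione supply and conjugate export, which were counted above, so it does not cover all NRF2 targets. Among those left out, Gclc and Gclm had log2 fold changes of -0.57 and -0.07 and did not pass, and Abcc2, at 0.71, was called higher. Nqo1, the target most often used as a readout, was at 4.36 and 7.22 CPM and did not pass (limma adjusted p = 0.111). G6pdx lost its call without WT replicate 2 (0.0523), and 2 to 5 of the NRF2 targets were called with 1 library left out.

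Of 18 targets of CAR and PXR 7 rose and 1 fell, beside 2.91% and 2.19% of all genes. Their median log2 fold change was 1.03. Cyp2b10, Cyp2c55 and Ces2a rose 8.74-fold, 4.63-fold and 3.47-fold (limma adjusted p = 0.000114, 0.000781 and 0.00119) and passed in all 7 fits without a library. Aldh1a1, a retinaldehyde dehydrogenase, was the gene that fell, 1.96-fold (0.0381). With 1 library left out, 5 to 8 of the list were called higher. None was called lower without any of WT replicates 1, 2 and 3 or of replicates 2, 3 and 4 of ALAS1/2-KO. Of 4 AHR targets limma called 0, with 3 at an unadjusted p under 0.05, beside 5.1% and 23.7% of all genes. Cyp1a2 was at 274 and 385 CPM and Ugt1a6b at 17.6 and 18.1 CPM.

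**Figure D3:**
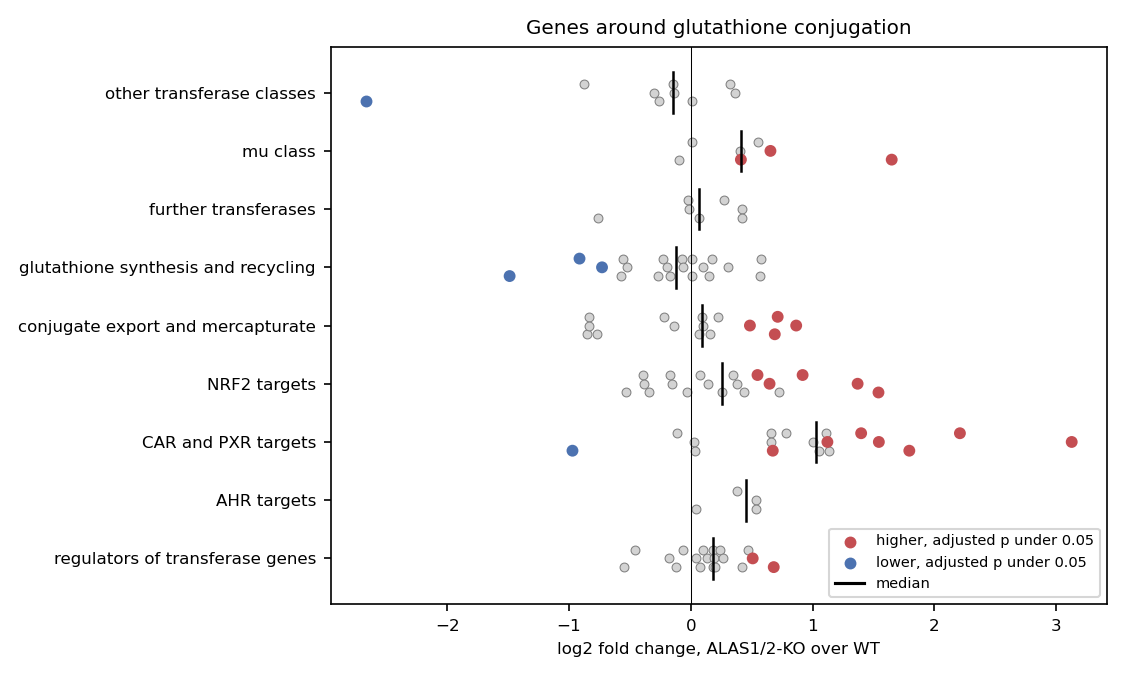
Log2 fold change of ALAS1/2-KO over WT for every tested gene of each list, with coloured points past an adjusted p of 0.05 in limma (red higher, blue lower) and a black line at the median. The CAR and PXR targets lie mostly above 0 with a median of 1.03, while the other transferase classes have a median of -0.15 and 1 coloured point, Gsta2.

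Genes whose level followed the same course over the libraries were listed for the gene with the smallest p and for the most abundant one. Over the 7 libraries Gsta2 was most like Ensa, Armc9 and Tsen15 in log2 CPM (Pearson r = 0.986, 0.984 and 0.982), whose own log2 fold changes were only -0.23, -0.55 and -0.34. Mgst1 was most like Slco1b2, an uptake transporter of hepatocytes, Megf9 and Gk, glycerol kinase (r = 0.986, 0.984 and 0.980, log2 fold changes -0.70, -0.83 and -0.51). These correlations rest on 7 points in 2 groups picked as the highest among all genes, and none of the 6 genes passed the test between groups.

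**Figure D4:**
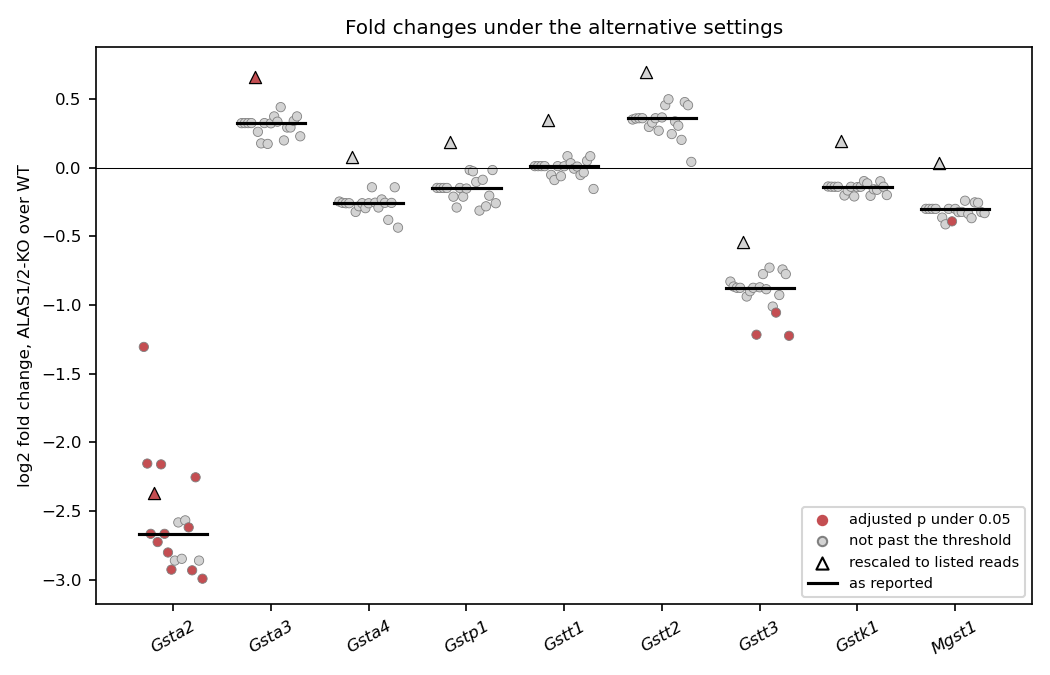
Log2 fold change of each of the 9 genes as reported (black line) and under every alternative setting (points, red where an adjusted p was under 0.05, triangle for CPM rescaled to listed reads). Gsta2 lies between -2.99 and -1.31 in its 18 alternatives, and Gsta4, Gstp1, Gstk1 and Mgst1 cross 0 with the rescaling.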

How the data were processed

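The data are 7 RNA-seq libraries, 3 WT and 4 ALAS1/2-KO, grouped by title and genotype label. Per the submitters' processing notes, the authors used cutadapt and HISAT2 with mm10; versions, read counter, annotation and scaling are unknown from the sources used here. The authors deposited log2 CPM values with a small prior for 12151 genes. Off the log2 scale and above a floor of 0.0676, they were whole multiples of a step per library (within 0.01 reads, for 99.99% of values or more in each), which gave reads and depth; CPM below has the floor subtracted.

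A minimum of 1 CPM in 3 or more libraries was set, and limma was run on the deposited log2 values (limma 3.58.1, R 4.3.3; intensity trend, robust variances, two-sided, Benjamini-Hochberg over 12105 genes, threshold 0.05). Fold changes include the prior, which understates those of low genes such as Gsta2. The procedure was tested on simulated data. Single genes also had an exact permutation test over 35 regroupings. The 10 genes and all lists were chosen with earlier results of these data known. All 10 are named, and of other lists up to 3 called genes with the smallest p, or else the 2 most abundant. Gclc, Gclm, Nqo1, Gstp2, Gstp3, Anpep, Cbr1, Pgd, Aldh1a1 and the cell type markers named with values or calls were added after their values were seen. Alternatives were 2 pseudocounts, 2 filters, 3 scalings, 3 other limma fits, a replicate block, and leaving out libraries.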

Additional observations from a re-analysis of the deposited data

Results flagged for a closer look

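In 32 genes named here the 4 ALAS1/2-KO libraries were checked for a library far from its group, by the gap to its nearest neighbour over the whole range (Dixon's 95% criterion). None of the 9 transferases of the other classes had one, and 2 genes did, where chance gives about 1 in 20. Ces2a was at 589 CPM in ALAS1/2-KO replicate 1, against 728 to 733 in the others. Cyp1a2 was at 349 CPM in ALAS1/2-KO replicate 3, against 394 to 399.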

How the results depend on the processing

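Of 170 values of the 9 genes under 19 alternatives, 149 kept their direction and side of the threshold, 5 newly passed, 5 lost the call and 11 changed sign. With CPM rescaled to listed reads, 1 gene was called higher (Gsta3), and Gsta4, Gstp1, Gstk1 and Mgst1 changed sign (0.076, 0.19, 0.20 and 0.036); the median of all genes was then 0.32. Higher calls then went from 3 to 5 in the mu class, 0 to 2 among further transferases, 0 to 5 for glutathione supply, 5 to 9 for NRF2 targets, 7 to 12 for CAR and PXR targets, 0 to 3 for AHR targets and 2 to 10 for regulators; lower calls went from 3 to 1 for glutathione supply and from 1 to 0 for CAR and PXR targets. Genes near 0 also changed sign. Without the 20 most abundant and mitochondrial genes Gstt1 was at -0.051 and Ugt1a6b at -0.016, with quantile normalization Gstt1 at -0.089 and Gstz1 at -0.076, with array weights Gstt1 at -0.061 and Gstz1 at -0.092, and without ALAS1/2-KO replicates 1 and 2 Gstt1 at -0.15 and Gstz1 at -0.13. With 1 library left out, Gstt1 ranged from -0.052 to 0.085, Gstz1 from -0.069 to 0.17 and Ugt1a6b from -0.037 to 0.13. The count of lower genes, 1 as reported, was 0 with at least 5 CPM, where Gsta2 was not tested, 3 with array weights, 0 to 2 with 1 library left out, and 2 without ALAS1/2-KO replicates 1 and 2. Replicate numbers did not pair the libraries (correlations of same-numbered deviations -0.03, 0.05 and 0.18, and no WT library was most like its own number); with a replicate block 0 of the 9 were called lower (Gsta2 -2.86, adjusted p = 0.112). Over all genes 617 were called, against 2735 with rescaling, 306 without trend, 2001 with array weights, 86 with the block, 1130 without ALAS1/2-KO replicates 1 and 2, and 100 to 802 with 1 library left out. The share of higher calls was 57.1%, but 92.6% with rescaling and 42.3% without the 20 most abundant and mitochondrial genes. Rescaling put the listed reads in place of the depth that the deposited values imply. That depth was 0.836, 0.801 and 1.00 times the listed reads in WT replicates 1, 2 and 3. In ALAS1/2-KO replicates 1 to 4 it was 1.18, 1.09, 1.08 and 1.07 times the listed reads, and rescaling makes these ratios equal. What set the ratios, and the cause of the other shifts, was not tested. Gsta2 rests on 3 to 19 reads per ALAS1/2-KO library, so its fold is the least precise of the 9.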
